A study of Homo sapiens with 3 samples.

Results

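The SWI/SNF complexes are large machines that use ATP to slide or evict nucleosomes and so open chromatin for transcription factors and repair enzymes. Each complex is built around 1 ATPase, either SMARCA4 (BRG1) or SMARCA2 (BRM), and a shared core, to which BAF complexes add ARID1A or ARID1B and PBAF complexes add ARID2 and PBRM1. Several of these genes are recurrently inactivated in lung and other cancers, and cells without SMARCA4 are known to rely on SMARCA2. The 10 members described here, SMARCA4, SMARCA2, SMARCB1, SMARCC1, SMARCC2, SMARCD1, ARID1A, ARID1B, ARID2 and PBRM1, were chosen by gene symbol, out of 18856 genes listed in at least 1 library. No value served as a filter, but earlier results of these data were known when they were chosen.

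The data analysed here are 3 libraries, 1 per group, with an input of 10 pg polyadenylated mRNA from a cell line in each. Further libraries of the study, a biological replicate of HBE LIEA among them, were not analysed here. LIEA, a direct library construction for low inputs read on the Ion Torrent platform, was applied to HBE, a human bronchial epithelial cell line, and to A549, a lung adenocarcinoma cell line that is known to carry an inactivating SMARCA4 mutation. Smart-seq2, in which full-length cDNA is amplified before library construction, was applied to HBE mRNA and read on an Illumina sequencer. A549 differs from HBE in far more than SMARCA4, since it is another line from another person with its own tumour genome, and the cell line and the mutation cannot be told apart here. The input was mRNA diluted from many cells, so less transcript in every cell and fewer cells with the transcript cannot be told apart.

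Without replicates in these data no difference between libraries has a replicate check and no test was made. Levels are given as rpkM, reads per kilobase of transcript and per 1000000 mapped reads, and differences as log2 ratios of rpkM, with a 95% exact binomial interval in brackets that covers the counting error of the reads only and treats PCR copies as independent. A difference of at least 2-fold was used to count genes. Recovered from the deposited values, the libraries held 4605855 mapped reads for HBE LIEA, 4154060 for A549 LIEA and 9845150 for HBE Smart-seq2, so 3 reads, the limit that a count of 0 allows, corresponded to between 0.305 and 0.722 reads per 1000000. All 10 members were listed in each library with more than 10 reads, at least 117 in HBE LIEA, 90 in A549 LIEA and 41 in HBE Smart-seq2.

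Marker genes were read as a check of the cell line labels. The epithelial keratins KRT8 and KRT18 had log2 rpkM of 8.98 or more in each of the 3 libraries, and both were higher in A549 LIEA than in HBE LIEA, by 2.97 and 2.53. The adhesion genes EPCAM and CDH1 went the other way, with differences of -2.97 and -1.56, and EPCAM had 26 reads in A549 LIEA. KRT5, the keratin of basal airway cells, had log2 rpkM of 9.11 in HBE LIEA and 8.67 in HBE Smart-seq2 against 0.91 in A549 LIEA. The other 3 basal markers, TP63, KRT6A and KRT14, were also lower in A549 LIEA, where KRT14 was not listed. Of 4 alveolar type II markers, SFTPC and SFTPA1 were not listed in any library, SFTPB had 20 to 49 reads in each, and NKX2-1 had at most 4. Of 7 markers of blood, stroma and endothelium, CD3E, COL1A2 and DCN were not listed in any library and PTPRC had at most 3 reads. COL1A1 had 175 reads in HBE LIEA, 93 in A549 LIEA and 85 in HBE Smart-seq2, PECAM1 had 20, 9 and 91, and VWF had 18 in HBE LIEA and was not listed in the others.

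SMARCA4, 1 of the 2 ATPases, had the largest difference of the members between the cell lines. SMARCA4 (chr19:11071608-11190102, plus strand, GRCh37) and SMARCA2 (chr9:1980290-2193624, plus strand) are alternative motors of the same complexes, and only 1 of them sits in a given complex. Because they are paralogues, reads of one could in principle be counted for the other, so their most alike stretch within single coding exons is shown, 43 bases long, in SMARCA2 from exon 5 (chr9:2047399-2047441) and in SMARCA4 from exon 6 (chr19:11098515-11098557), both on the plus strand of GRCh37 and written 5′ to 3′, with the bases that differ in capitals.
SMARCA2: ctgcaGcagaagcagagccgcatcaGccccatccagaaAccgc
SMARCA4: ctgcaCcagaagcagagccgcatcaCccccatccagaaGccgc
These lines differ at 3 bases, the error setting at which LIEA reads were mapped. Of 5825 windows of 43 bases along the whole SMARCA2 transcript, across exon ends too, 20 (0.343%) came within 3 mismatches of SMARCA4. The fewest was 2 mismatches, the error setting for Smart-seq2, in 2 windows. At 87 bases none of 5781 windows came within 3, the fewest being 9 mismatches. Windows of SMARCA4 were not searched against SMARCA2, no reads were examined, and the part of misassigned reads in the levels was not tested.

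SMARCA4 had 75.6 rpkM in HBE LIEA (2008 reads), 3.75 in A549 LIEA (90 reads) and 19.5 in HBE Smart-seq2 (1110 reads). A549 had the lowest level of the 3, below both HBE libraries. By LIEA, SMARCA4 was 20.1-fold lower in A549, a log2 difference of -4.33 [-4.65, -4.03], and only 1.51% of the 12948 genes compared had a lower difference. In rank, SMARCA4 stood above 92.5% of the quantified genes in HBE LIEA and 71.3% in HBE Smart-seq2, against 27.3% in A549 LIEA. The transcript was still read in A549, at a level near that of PBRM1 in the same library.

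SMARCA2 had 4.32 rpkM in HBE LIEA (117 reads), 8.89 in A549 LIEA (217 reads) and 2.26 in HBE Smart-seq2 (131 reads). It was the only member that was at least 2-fold higher in A549 than in both HBE libraries. The difference by LIEA was 1.04 [0.71, 1.38] on the log2 scale, 2.06-fold, and its counting interval reaches below 2-fold.

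The order of the ATPases was opposite in the 2 lines. The level of SMARCA2 relative to SMARCA4 was -4.13 [-4.41, -3.86] on the log2 scale in HBE LIEA and -3.11 [-3.38, -2.85] in HBE Smart-seq2, but 1.24 [0.88, 1.61] in A549 LIEA, where SMARCA2 was 2.37-fold higher. SMARCA4 made up 94.6% of the summed rpkM of the pair in HBE LIEA, 89.6% in HBE Smart-seq2 and 29.7% in A549 LIEA. The sum itself was 79.9 rpkM in HBE LIEA and 12.6 in A549 LIEA, so the pair together was lower in A549 although SMARCA2 was higher.

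**Figure D1:**
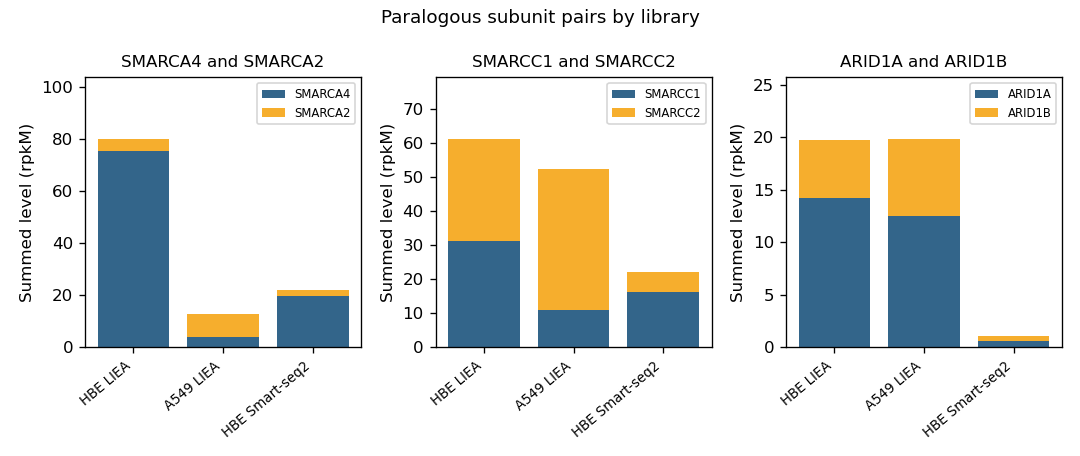
Levels of the paralogue pairs SMARCA4 and SMARCA2, SMARCC1 and SMARCC2, and ARID1A and ARID1B in the 3 libraries, as stacked bars of rpkM without intervals. SMARCA4 is the larger part of its bar in both HBE libraries and the smaller part in A549, and SMARCC1 is the smaller part in A549.

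The core subunits hold the complex together. SMARCB1 (chr22:24129118-24180196, plus strand), which contacts the nucleosome and is lost in rhabdoid tumours, had 45.3 rpkM in HBE LIEA (355 reads), 38.7 in A549 LIEA (274 reads) and 82.5 in HBE Smart-seq2 (1383 reads). Its difference between the lines was -0.22 [-0.46, 0.01], with an interval that includes 0. It was the first or second most abundant member in every library.

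SMARCC1 (BAF155, chr3:47626759-47823596, minus strand) and SMARCC2 (BAF170, chr12:56556143-56583351, minus strand) are the paralogous scaffolds on which the rest of the complex assembles. SMARCC1 had 31.1 rpkM in HBE LIEA (824 reads), 10.8 in A549 LIEA (259 reads) and 16.1 in HBE Smart-seq2 (914 reads), so A549 was again below both HBE libraries. By LIEA it was 2.87-fold lower in A549, a log2 difference of -1.52 [-1.73, -1.32]. SMARCC2 had 29.9 rpkM in HBE LIEA (769 reads), 41.4 in A549 LIEA (962 reads) and 5.78 in HBE Smart-seq2 (318 reads), and its difference between the lines was 0.47 [0.33, 0.61]. The scaffolds were level in HBE LIEA, where SMARCC2 relative to SMARCC1 was -0.06 [-0.20, 0.09] on the log2 scale. In A549 LIEA SMARCC2 was 3.83-fold above SMARCC1, a log2 ratio of 1.94 [1.74, 2.14]. SMARCC1 was thus the minor scaffold transcript in A549. Their summed level was 61.0 rpkM in HBE LIEA and 52.3 in A549 LIEA. Smart-seq2 of HBE placed SMARCC2 below SMARCC1, at -1.48 [-1.67, -1.29], so this ratio differed between the HBE libraries. With 1 library per method, an effect of the method and a difference between libraries cannot be told apart.

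SMARCD1 (BAF60A, chr12:50478983-50494490, plus strand), an accessory subunit that links the complex to transcription factors, had 25.2 rpkM in HBE LIEA (398 reads), 29.0 in A549 LIEA (413 reads) and 1.21 in HBE Smart-seq2 (41 reads). The 2 LIEA libraries were close, with a difference of 0.20 [0.00, 0.40], and the Smart-seq2 library stood far below both.

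ARID1A (BAF250A, chr1:27019727-27108595, plus strand) and ARID1B (BAF250B, chr6:157097154-157531913, plus strand) are the mutually exclusive large subunits of BAF complexes, and ARID1A is among the chromatin genes most often mutated in cancer. ARID1A had 14.2 rpkM in HBE LIEA (562 reads), 12.5 in A549 LIEA (445 reads) and 0.556 in HBE Smart-seq2 (47 reads). ARID1B had 5.52 rpkM in HBE LIEA (245 reads), 7.32 in A549 LIEA (293 reads) and 0.453 in HBE Smart-seq2 (43 reads). Both genes were within 2-fold between the cell lines, with differences of -0.19 [-0.37, -0.01] for ARID1A and 0.41 [0.16, 0.66] for ARID1B. The summed level of the pair was 19.7 rpkM in HBE LIEA and 19.8 in A549 LIEA, with ARID1A contributing 72.0% and 63.0%. In HBE Smart-seq2 the sum was 1.01 rpkM.

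ARID2 (BAF200, chr12:46123489-46301823, plus strand) and PBRM1 (BAF180, chr3:52579368-52719933, minus strand), a protein with several bromodomains that read acetylated histones, define PBAF complexes. ARID2 had 6.77 rpkM in HBE LIEA (264 reads), 5.86 in A549 LIEA (206 reads) and 3.25 in HBE Smart-seq2 (271 reads), with a difference between the lines of -0.21 [-0.48, 0.06]. PBRM1 had 6.59 rpkM in HBE LIEA (230 reads), 3.24 in A549 LIEA (102 reads) and 4.88 in HBE Smart-seq2 (364 reads). It was 2.03-fold lower in A549 by LIEA, at -1.02 [-1.38, -0.68], so its counting interval spans the 2-fold mark. The BAF subunits ARID1A and ARID1B summed to 1.48 times the level of the PBAF subunits ARID2 and PBRM1 in HBE LIEA and to 2.18 times in A549 LIEA, but to 0.124 times in HBE Smart-seq2.

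**Figure D2:**
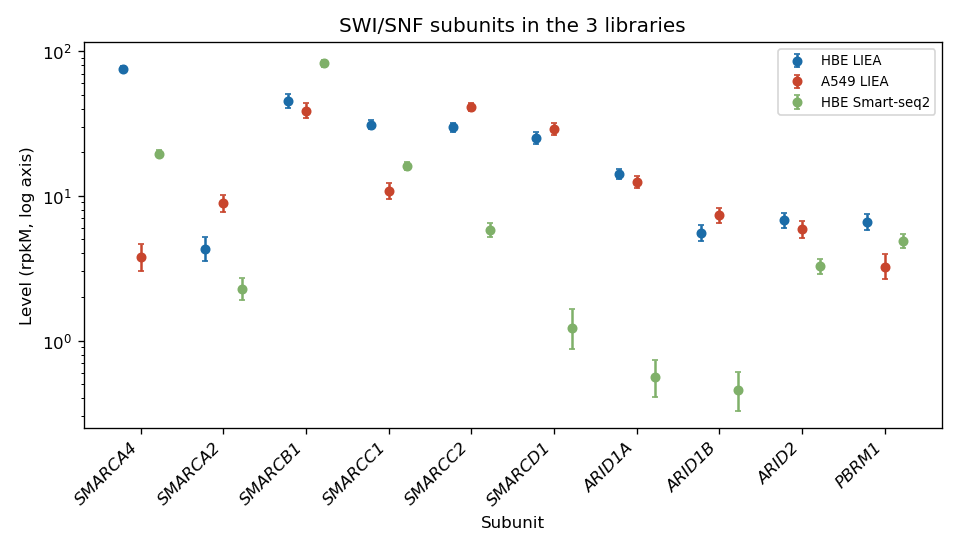
Level of each of the 10 members in the 3 libraries, as rpkM on a log axis with 95% counting intervals. SMARCA4 is the member with the widest gap between the LIEA libraries of HBE and A549, and SMARCD1, ARID1A and ARID1B are far lower in Smart-seq2 than in either LIEA library.

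Counted over the members, 3 of 10 (SMARCA4, SMARCC1 and PBRM1) were at least 2-fold lower in A549 than in HBE by LIEA, and 1 of 10 (SMARCA2) was at least 2-fold higher. Over all 12948 genes compared, 20.2% were lower and 18.0% higher by the same rule, so the count of members differing between the lines was near the background. The median difference of the members was -0.20, beside -0.15 over all genes, which is the general shift between these libraries. Centred on that shift, PBRM1 was within 2-fold and 2 members were lower, and on the TPM scale SMARCA2 was within 2-fold and none was higher. A549 LIEA lay below both HBE libraries for 4 members (SMARCA4, SMARCB1, SMARCC1 and PBRM1), where 38.4% of 13252 genes did, and above both for 4 (SMARCA2, SMARCC2, SMARCD1 and ARID1B), where 31.1% did. At 2-fold or more, SMARCA4 alone was below both (12.7% of genes) and SMARCA2 alone above both (12.1% of genes).

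**Figure D3:**
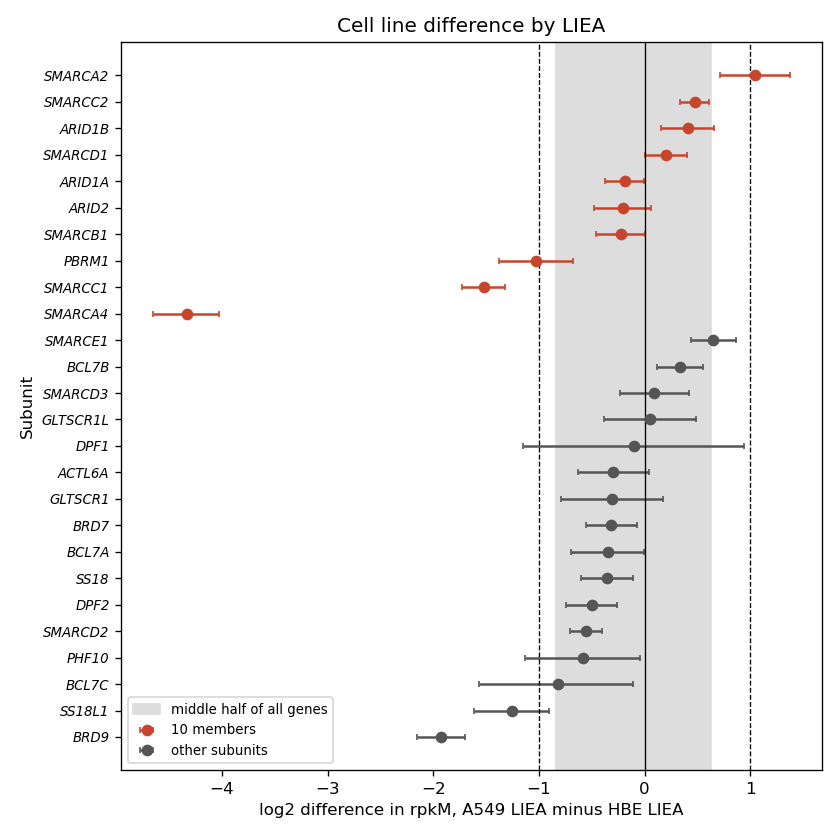
Log2 difference in rpkM between A549 and HBE, both by LIEA, for each member and for the other SWI/SNF subunits compared, with 95% counting intervals, the interquartile range of all genes as a grey band and 2-fold as dashed lines. SMARCA4 lies at -4.33, BRD9 at -1.92 and SMARCC1 at -1.52, and SMARCA2 at 1.04 is the single subunit beyond 2-fold on the higher side.

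A further 18 subunits of these complexes were read for context, of which 16 could be compared, DPF3 having at most 2 reads in a library and ACTL6B not being listed. Between the cell lines, 2 of the 16 were at least 2-fold lower in A549 and none was higher, where 20.2% of all genes were lower and 18.0% higher, so the count is no higher than the background. Their median difference was -0.33. BRD9, the bromodomain subunit of the non-canonical complex, had 846 reads in HBE LIEA, 201 in A549 LIEA and 729 in HBE Smart-seq2, and its difference by LIEA was -1.92 [-2.15, -1.70]. SS18L1, a paralogue of the SS18 subunit fused in synovial sarcoma, had 246, 93 and 153 reads in the same order, and its difference was -1.25 [-1.61, -0.90]. Neither reached the size of the SMARCA4 difference.

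Genes around SMARCA4 on chromosome 19 were read beside it. Of the protein-coding genes within 500 kb on either side, 28 could be compared between A549 and HBE by LIEA. Their differences ran from -2.47 to 1.87 with a median of -0.27, and 6 were at least 2-fold lower and 4 higher. Over all genes compared, 20.2% were lower and 18.0% higher. None of the 28 was as low as SMARCA4, but only 1.51% of all genes were, so this outcome was likely in advance. The part of the region in the SMARCA4 difference was not tested. For SMARCC1, 2 of 10 neighbours were as low as the gene itself, where 10.5% of all genes compared lay below it. For PBRM1 7 of 20 were, where 19.6% of all genes lay below it. Of the neighbours of SMARCB1, 11 of 13 had a difference at least as low as its own, where 47.2% of all genes lay below it. For ARID1A 4 of 15 did, beside 48.6% of all genes, and for ARID2 3 of 4, beside 47.8%. SMARCA2, higher in A549, had 1 neighbour that could be compared, at 2.03 and so above its own 1.04. Neighbours at least as high as the member numbered 2 of 2 for ARID1B, 8 of 38 for SMARCC2 and 3 of 12 for SMARCD1. Of all genes compared, 69.3%, 71.2% and 63.0% lay below these members, and 82.5% below SMARCA2. The counts stand beside these shares without a test. The look at neighbours was chosen after the member values were seen.

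Over all 3 libraries, few genes had levels like those of SMARCA4. Likeness was measured as the Euclidean distance over the 3 log2 rpkM values among 14157 genes, and 1 gene came within 0.5. This was HAS3, a hyaluronan synthase, at a distance of 0.451 with log2 rpkM of 6.19 in HBE LIEA, 1.82 in A549 LIEA and 4.73 in HBE Smart-seq2. The next were PTK7, a receptor-like kinase, at 0.666 and the cytokine IL11 at 0.825. Around SMARCA2, 42 genes came within 0.5, the nearest being ATP9B at 0.196, C8orf82 at 0.203 and OPLAH at 0.221. With only 3 libraries such a distance describes levels and no more.

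The method comparison within HBE changed the library construction and the sequencing platform together. The filters on reads and the mapping error settings (3 for LIEA, 2 for Smart-seq2) also differed. The part of each, and of differences between single libraries, cannot be told apart. This comparison, which shares the HBE LIEA library with the comparison of cell lines, had more of the members past 2-fold. By LIEA 6 of 10 members (SMARCA4, SMARCC2, SMARCD1, ARID1A, ARID1B and ARID2) were at least 2-fold higher than by Smart-seq2 and none was at least 2-fold lower, while over 13270 genes 28.1% were higher and 21.9% lower. The median difference of the members was 1.5, against 0.04 over all genes. Of the 16 other subunits compared, 8 were higher and 3 lower, with a median of 1.01. Those higher by LIEA were the BAF60 paralogues SMARCD2 (2.64) and SMARCD3 (2.06), the PBAF subunits BRD7 (1.38) and PHF10 (3.47), the non-canonical subunits BRD9 (1.31), GLTSCR1 (4.57) and GLTSCR1L (2.14), and SS18L1 (1.78). Those lower were SMARCE1 (-1.22), ACTL6A (-1.75) and BCL7B (-1.02).

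ARID1A had the largest of these differences, 4.68 [4.25, 5.14] on the log2 scale or 25.6-fold, followed by SMARCD1 at 4.38 [3.91, 4.88] or 20.7-fold and ARID1B at 3.61 [3.13, 4.11] or 12.2-fold. Of all genes compared, 98.5%, 98.0% and 96.1% had a lower difference than these 3. SMARCC2 followed at 2.37 [2.18, 2.56], SMARCA4 at 1.95 [1.84, 2.06] and ARID2 at 1.06 [0.81, 1.31]. SMARCC1 at 0.95 [0.81, 1.08], SMARCA2 at 0.93 [0.56, 1.3] and PBRM1 at 0.43 [0.19, 0.68] stayed under 2-fold. SMARCB1 was the single member with a lower level by LIEA, at -0.87 [-1.04, -0.70].

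The Smart-seq2 library was the deeper of the HBE libraries and held at least 41 reads for each member. Thinning it was therefore unlikely to take a member below 10 reads. When its reads were thinned to the HBE LIEA total in 100 draws, all 10 members kept at least 10 reads in each draw, with SMARCD1 at 12 to 28 reads, ARID1A at 14 to 29 and ARID1B at 13 to 27. Measured by level and not by reads, ARID1A and ARID1B were under 1 rpkM by Smart-seq2, leaving 8 members above it. The range from the highest to the lowest member was 17.5-fold in HBE LIEA and 182.0-fold in HBE Smart-seq2.

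The order of the members differed accordingly. In HBE LIEA it ran from SMARCA4 through SMARCB1, SMARCC1, SMARCC2, SMARCD1, ARID1A, ARID2, PBRM1 and ARID1B to SMARCA2. Neighbours in that order whose intervals overlapped equality were SMARCC1 with SMARCC2, ARID2 with PBRM1, and PBRM1 with ARID1B. In HBE Smart-seq2 it ran from SMARCB1 through SMARCA4, SMARCC1, SMARCC2, PBRM1, ARID2, SMARCA2 and SMARCD1 to ARID1A and ARID1B, which were the only neighbours not separated beyond counting error. In A549 LIEA the order was SMARCC2, SMARCB1, SMARCD1, ARID1A, SMARCC1, SMARCA2, ARID1B, ARID2, SMARCA4 and PBRM1, and the unseparated neighbours were SMARCC2 with SMARCB1, ARID1A with SMARCC1, and SMARCA4 with PBRM1. The summed level of all 10 was 244.4 rpkM in HBE LIEA and 161.5 in A549 LIEA, and 168.8 and 157.8 without SMARCA4.

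Base composition and transcript length moved with the method difference over all genes. The median log2 difference between LIEA and Smart-seq2 was -0.70 for transcripts under 40% GC and 1.03 for those of 60% or more, and it was -0.40 for transcripts under 2000 nt and 0.99 for those of 8000 nt or more. Among the members, the transcripts of ARID2 (40.5% GC) and PBRM1 (40.4%) were the poorest in GC, and that of SMARCA4 (61.0%) the richest. ARID1A (57.5% GC, 8585 nt) and ARID1B (53.6%, 9638 nt) were long, but SMARCD1 (53.4%, 3429 nt) was not, and SMARCB1 (59.1%, 1703 nt) was below the median of genes of 55 to 60% GC, 0.59, and below that of transcripts under 2000 nt. Spearman's rho of the difference with GC content was 0.32 over the 10 members and 0.37 over 12900 genes, and with length 0.31 and 0.26. These points come from the same 2 libraries, and the part of either property in the result was not tested.

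**Figure D4:**
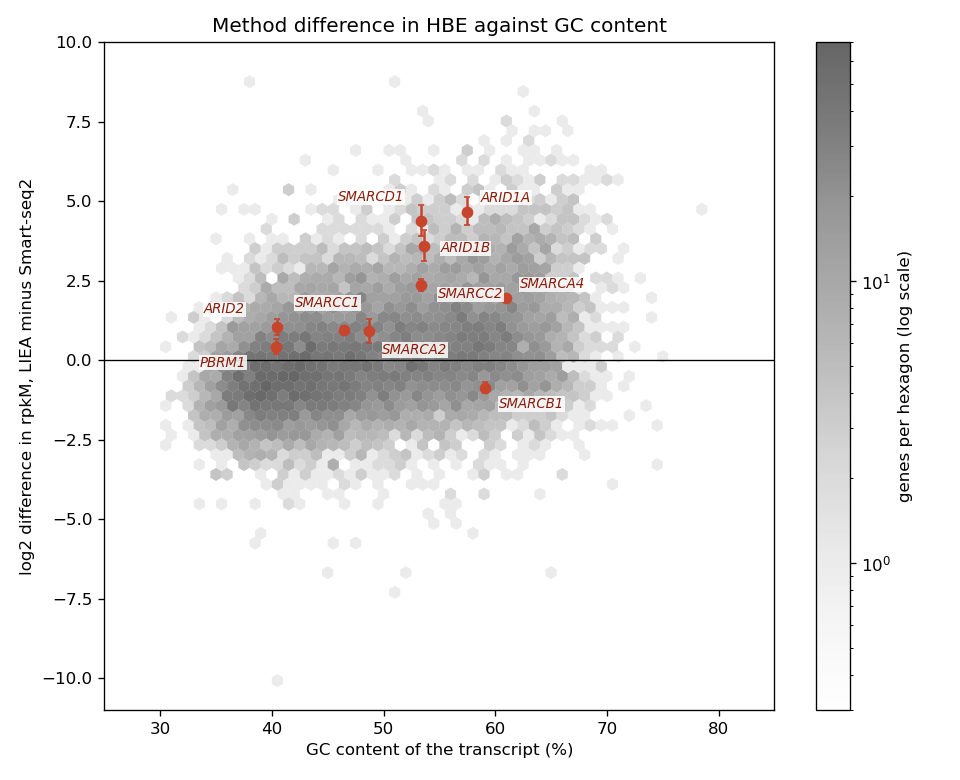
Log2 difference in rpkM between LIEA and Smart-seq2 of HBE against the GC content of the transcript, with all genes as grey hexagons shaded by their number and the 10 members as points with 95% counting intervals. ARID1A, SMARCD1 and ARID1B lie between 3.61 and 4.68, in the upper part of the cloud at their GC content, and SMARCB1 lies below 0.

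To show what such transcripts look like, the 60 coding bases richest in G and C are given for both ARID1 genes, where the method difference was large, and for SMARCA2, where it was under 2-fold. They are written 5′ to 3′ with G and C in capitals, all on the plus strand of GRCh37, from ARID1A exon 1 (chr1:27023135-27023194), ARID1B exon 1 (chr6:157098817-157098876) and SMARCA2 exon 5 (chr9:2047278-2047337).
ARID1A: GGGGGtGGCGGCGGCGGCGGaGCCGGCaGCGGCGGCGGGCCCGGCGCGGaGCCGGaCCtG
ARID1B: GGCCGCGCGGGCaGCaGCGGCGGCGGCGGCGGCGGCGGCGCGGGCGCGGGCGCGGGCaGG
SMARCA2: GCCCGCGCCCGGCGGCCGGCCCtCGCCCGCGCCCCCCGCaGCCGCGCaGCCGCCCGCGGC
The windows hold 90.0%, 95% and 95% G and C. The SMARCA2 levels by the 2 methods differed by 0.93 on the log2 scale as rpkM, and by 1.13, past 2-fold, with TPM. The part of such windows in the method difference was not tested. SMARCA4 and SMARCC1 had 85% in their richest windows, SMARCD1 83.3% and SMARCB1 66.7%.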

How the data were processed

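The authors mapped reads with FANSe2 to RefSeq transcripts, allowing an error setting of 3 for LIEA and 2 for Smart-seq2, merged splice variants, and deposited log2 rpkM per gene without a pseudocount. Genes without reads are not listed. The members and gene lists were chosen with earlier results of these data known. The values were turned into rpkM, and reads were recovered from them. Genes with equal reads in several libraries gave the ratio of totals, and the total was the one at which 76.3% of 300 such genes gave whole transcript lengths. The rule for the total was changed after a first simulation gave wrong totals. A whole number by which a gene's reads and length may both be multiplied is not fixed by the values, and GENCODE 44 lengths were used to pick it. This multiplier was 2 for SMARCA4 and PBRM1 and 1 for the other members. It changes reads and intervals, not levels or differences. Whole reads came out for 18853 of 18856 genes (99.98%). Genes with at least 10 reads in a library counted as quantified, 12309 in HBE LIEA, 12591 in A549 LIEA and 12922 in HBE Smart-seq2. Differences were computed for genes quantified in at least 1 library of a pair and listed in both, and a gene past 2-fold was counted. All members were named, with the other subunits past 2-fold in either comparison or under 10 reads throughout, the 2 genes of each other list with the largest difference between the lines, and the 3 genes nearest to each ATPase. In HBE Smart-seq2, 1589 rows without a gene name were left out, as were 4 rows with repeated names in each library. The files carry no coordinates. Positions, GC content and sequences came from GENCODE 44 on GRCh37, by symbol, for all 10 members. Recovery was tested on 5 simulated data sets, built from the recovered lengths and reads. All totals came back in each of the 5, and reads were exact for 95.02% to 95.13% of genes with whole reads. The simulated lengths already held the multipliers picked with GENCODE 44, so these shares cannot show that the multipliers are right. Scripts ran in Python 3.11.15 with scipy 1.17.1, pandas 2.3.3, numpy 2.4.6 and matplotlib 3.10.9.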

Additional observations from a re-analysis of the deposited data

How the results depend on the processing

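The libraries have no replicates, so none could be left out. No paired analysis was possible because each group has 1 library. SMARCA4 was lower in A549 under each scaling tried, by -4.01 on the log2(rpkM + 1) scale against -4.33 as deposited, which is outside its counting interval. On that scale the ratio of SMARCA2 to SMARCA4 was -3.85 in HBE LIEA and -2.65 in HBE Smart-seq2. The single member at least 2-fold higher in A549, SMARCA2, gave a count of 0 with TPM, 0 with log2(rpkM + 1) and 0 where the whole counting interval had to pass 2-fold. The members at least 2-fold lower in A549 numbered 2 to 3 over the alternatives, with PBRM1 lost on median centring, upper quartile scaling, log2(rpkM + 1) and the whole interval. In HBE, 5 to 8 members were higher by LIEA, and at 1.5-fold 1 member (SMARCB1) was lower. Beside that of SMARCA4 between the lines, 19 single-member differences were rescaled in 4 ways, and of these 76 values 66 moved by less than their counting interval and none changed sign. The median of all genes between A549 and HBE moved from -0.15 to -0.31 with TPM and 0.02 with upper quartile scaling. Taking the smallest whole reads, chosen after seeing the data, changed none of the counts of members. Depth limits ARID1A, ARID1B and SMARCD1 most, with 41 to 47 reads by Smart-seq2.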

Other observations

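Other chromatin complexes were read beside SWI/SNF, from lists of their subunits. Over all genes compared between A549 and HBE by LIEA, 20.2% were at least 2-fold lower and 18.0% higher, and the counts of each list stand against these shares without a test. ISWI complexes slide and space nucleosomes, and of 10 subunits compared between A549 and HBE by LIEA 1 was at least 2-fold lower and 1 higher, with a median log2 difference of -0.82. The higher one was SMARCA1, the ISWI ATPase SNF2L, which had 12 reads in HBE LIEA, 385 in A549 LIEA and 87 in HBE Smart-seq2, a difference of 5.15, and the lower one was POLE3 at -1.28. The HBE libraries themselves were far apart for SMARCA1, with log2 rpkM of -0.66 by LIEA and 1.11 by Smart-seq2, both below the 4.50 of A549.

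Of 19 genes of the CHD family and of NuRD, which couples remodelling to histone deacetylation, 3 were lower and 0 higher in A549. Their median was -0.58, and MTA2 at -1.77 and GATAD2A at -1.61 differed most. Of 20 INO80, SRCAP and EP400 subunits 2 were lower (UCHL5 at -1.44 and NFRKB at -1.15) and 0 higher, with a median of -0.13. Of 8 genes of Polycomb PRC2, which methylates histone H3 and opposes SWI/SNF at many genes, 2 were lower (JARID2 at -1.69 and EED at -1.15) and 0 higher, with a median of -0.72. None of these differences has a replicate check, and the median of all genes was -0.15.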
